A study of Caenorhabditis elegans with 2 samples.

Results

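The 7 genes snr-1 to snr-7 encode the Sm proteins of Caenorhabditis elegans, the ring-forming core of the small nuclear ribonucleoproteins (snRNPs) that carry out pre-mRNA splicing. They were taken by symbol from a deposited table of 19487 genes with annotated introns, and 7 of 7 were present. RNA came from mixed-stage embryos, isolated by bleaching, of the strain BW1943, which carries gad-1(ct226) and dpy-11(e224) on chromosome V. One culture was kept at 25 °C and the other at 16 °C, and 1 stranded mRNA library was made from each. Both libraries carry both alleles and no other strain enters, so temperature and the gad-1 mutation cannot be told apart. There are no replicates, so each interval below covers counting error only and each difference has no replicate check.

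Sm proteins assemble on a uridine-rich site of the spliceosomal U1, U2, U4 and U5 snRNAs. A D1-D2 pair and an E-F-G trimer bind the RNA first, and the B-D3 pair closes the ring, with help from the SMN complex. The related LSm proteins form a like ring on U6 snRNA or, in another combination, act in mRNA decay in the cytoplasm. In nematodes Sm proteins also bind the spliced leader RNAs used in trans-splicing, and they are found on the P granules of the germline. By homology SNR-3 is SmD1, SNR-4 SmD2, SNR-5 SmF, SNR-6 SmE, SNR-7 SmG, SNR-2 SmB and SNR-1 SmD3.

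Counted reads numbered 18175617 at 25 °C, with 2.47% in introns, and 22016818 at 16 °C, with 1.43% in introns. Exon reads of the mutated gene, gad-1, numbered 2748 at 25 °C against 3123 at 16 °C, which checks no label since both libraries carry the allele. The 6 embryo genes looked up were detected in both libraries, with 44 exon reads (elt-7) to 4907 (pos-1) at 25 °C and 259 (end-1) to 6161 (pos-1) at 16 °C. Scaled by library total, their exon reads at 25 °C were 0.128 of the 16 °C level in elt-7 and 0.248 in end-1. They were 0.965 in pos-1, 0.979 in mex-5, 1.35 in hlh-1 and 1.36 in skn-1. The 2 embryo collections thus differed in some of these genes. The part of embryo makeup in the Sm values was not tested. In bulk embryos, fewer cells of a type and less RNA per cell cannot be told apart.

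The Sm genes are compact and intron-poor. In the deposited table their summed exon length was 351 to 931 bases and their summed intron length 47 to 157 bases, against medians of 1179 and 654 bases over all genes. Positions below are from Ensembl release 115 on WBcel235. The build the authors used is not given in the sources used here. Gene snr-1 lies on chromosome IV from 17088049 to 17088946, plus strand, with introns of 50 and 51 bases. Gene snr-2 lies on chromosome I from 13339397 to 13340224, plus strand, with introns of 53 and 56 bases. Gene snr-3 lies on chromosome II from 6488830 to 6489761, minus strand, and snr-4 on chromosome V from 11978508 to 11979723, minus strand. Gene snr-5 lies on chromosome III from 7862070 to 7862574, plus strand, with introns of 50 and 107 bases. Gene snr-6, also on chromosome III, runs from 12429172 to 12429629 on the minus strand with 1 intron of 47 bases. Gene snr-7 lies on chromosome I from 2727014 to 2727545, plus strand, with 1 intron of 53 bases.

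The deposited intron length equals the annotated one in snr-1, snr-2, snr-5, snr-6 and snr-7. For snr-3 the table has 92 bases, the sum of introns of 47 and 45 bases, and leaves out the 214-base intron of its longer transcript. For snr-4 the table has 50 bases, 1 of the 2 annotated introns, and leaves out the other of 603 bases. Reads in those left-out introns are therefore not counted as intron reads here. The deposited exon length of both genes is above the annotated one, at 825 against 626 bases in snr-3 and 931 against 563 in snr-4. Whether such reads entered the exon counts instead is not known here. The annotated span overlaps another gene in 4 members, whose reads are uncertain for that reason. These are snr-1 (Y116A8C.43, same strand), snr-3 (plpp-1.2, opposite strand), snr-4 (a piRNA, same strand) and snr-6 (pie-1, opposite strand). Sequencing reads were 150 bases long, longer than each annotated intron except 2, and how a read that touches both exon and intron was assigned is not given in the sources used here.

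Across the family, intron reads made up a larger share at 25 °C while exon reads made up a smaller part of the library. Summed over the 7 genes there were 407 intron reads at 25 °C, against 260 at 16 °C, and 34674 exon reads at 25 °C, against 56320 at 16 °C. Introns took 1.16% of their reads at 25 °C, with an exact 95% binomial interval of 1.05 to 1.28, against 0.460% (0.405 to 0.519) at 16 °C. Their exon reads were 0.191% of the 25 °C library and 0.256% of the 16 °C library.

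**Figure D1:**
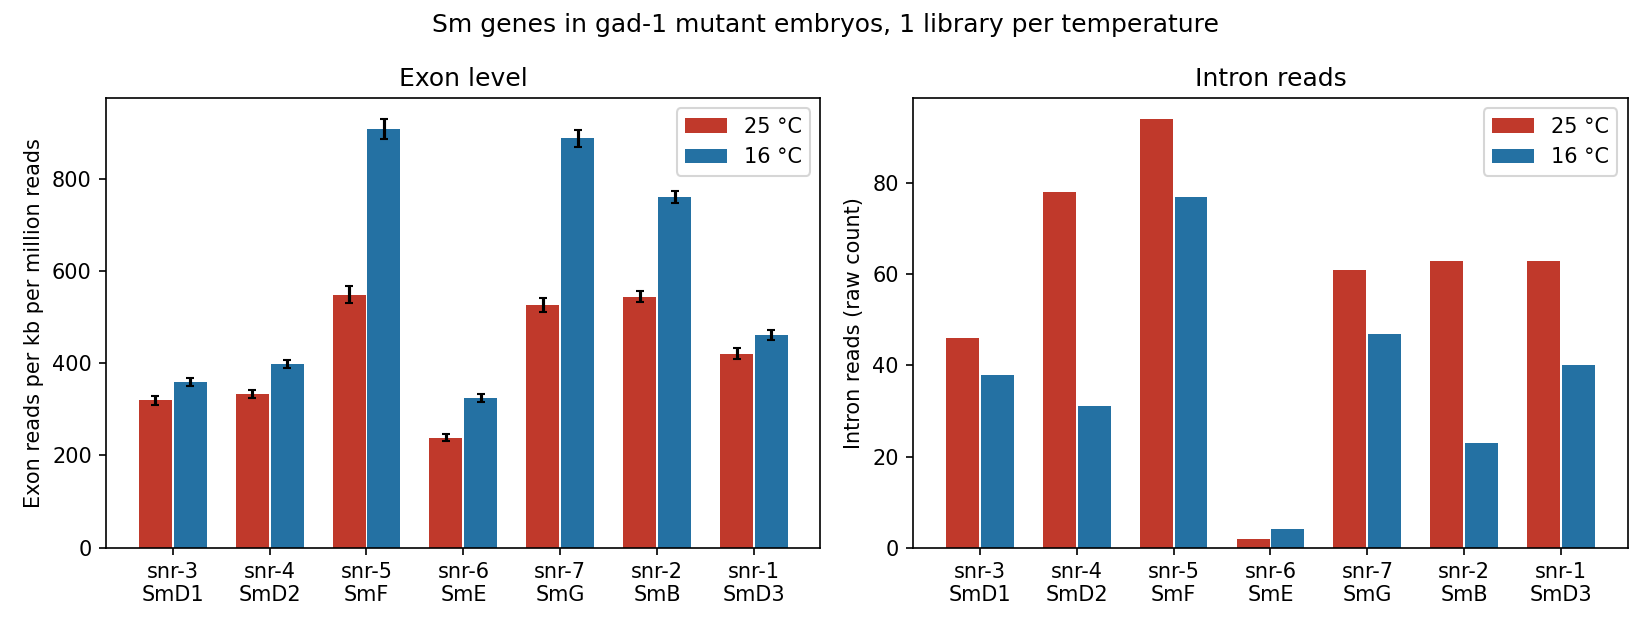
Exon level in reads per kilobase of exon per 1000000 library reads (left, bars with exact 95% Poisson intervals) and raw intron reads (right) of the 7 Sm genes at 25 °C and 16 °C, 1 library each. Exon bars at 25 °C are below those at 16 °C in 7 of 7 genes, and intron counts at 25 °C are higher in 6 of 7, with snr-6 at 2 and 4 reads.

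In the D1-D2 pair, snr-4 (SmD2) had 78 intron reads at 25 °C and 31 at 16 °C, beside 5642 exon reads at 25 °C and 8154 at 16 °C. Its intron-to-exon read ratio rose 3.64-fold at 25 °C (95% interval 2.37 to 5.71) by a two-sided Fisher exact test on its exon and intron counts (Benjamini-Hochberg adjusted p = 6.91e-09). With 1 library each, such a test sets 1 library against the other and not 1 temperature against the other. For snr-3 (SmD1) there were 46 intron reads at 25 °C and 38 at 16 °C, with 4787 exon reads at 25 °C and 6522 at 16 °C. Here the ratio was 1.65 (1.05 to 2.61), which the same Fisher exact test did not call (adjusted p = 0.0829). Thus the partners of this pair had unlike values, but their intervals overlap.

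In the E-F-G trimer, snr-5 (SmF) had the most intron reads of the family, 94 at 25 °C and 77 at 16 °C, beside 3501 exon reads at 25 °C and 7009 at 16 °C. Its ratio rose 2.44-fold (1.78 to 3.36; Fisher exact test, adjusted p = 2.22e-07). For snr-7 (SmG), 61 intron reads at 25 °C and 47 at 16 °C stood beside 4584 and 9359 exon reads at 25 °C and 16 °C, and the ratio rose 2.65-fold (1.78 to 3.97; Fisher exact test, adjusted p = 7.46e-06). In both genes the raw intron reads differed less between the libraries than the raw exon reads, but the 25 °C library is the smaller. Scaled by library total, intron reads were 1.48-fold higher in snr-5 and 1.57-fold higher in snr-7. Exon reads were then 0.605 and 0.593 of their 16 °C level, and the contrast depends on the scaling. The SmE gene snr-6 stood apart, with 2 intron reads at 25 °C, against 4 at 16 °C, beside 3875 exon reads at 25 °C and 6394 at 16 °C. Its ratio of 0.825 has an interval of 0.0746 to 5.76, so neither a rise like that of its partners nor a fall was detectable at this depth (Fisher exact test, adjusted p = 1).

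In the ring-closing B-D3 pair, snr-2 (SmB) had 63 intron reads at 25 °C and 23 at 16 °C, with 7114 exon reads at 25 °C and 12028 at 16 °C. Its ratio rose 4.63-fold (2.83 to 7.83; Fisher exact test, adjusted p = 8.99e-10), the largest fold among the 7 members. The SmD3 gene snr-1 also had 63 intron reads at 25 °C, against 40 at 16 °C, and 5171 exon reads at 25 °C, against 6854 at 16 °C. Its ratio rose 2.09-fold (1.38 to 3.19; Fisher exact test, adjusted p = 0.00179). Of the 21 pairs of members, the intervals of the ratio lay apart in 1, snr-2 above snr-3, and overlapped in the other 20.

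**Figure D2:**
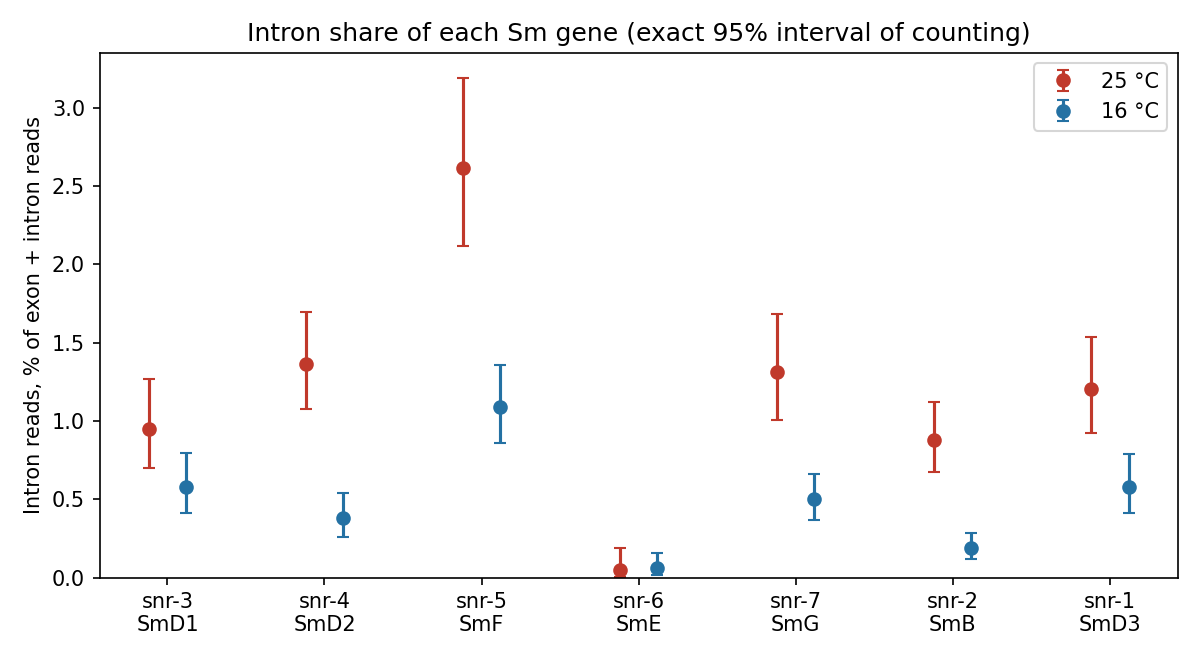
Intron reads as a percentage of exon plus intron reads for each Sm gene at 25 °C and 16 °C, with exact 95% binomial intervals, 1 library per temperature. The highest point at either temperature is snr-5 (2.61% at 25 °C, 1.09% at 16 °C) and the lowest is snr-6 (0.0516% at 25 °C, 0.0625% at 16 °C).

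Counted together, the ratio rose in 5 of 7 Sm genes and fell in none, against 28.1% of 14972 tested genes called as rises and 0.614% called as falls. This share depends on expression, since it was 51.0% among the 6404 genes with at least 1000 combined exon reads, and each Sm gene has at least 10269 of them. Tested over genes with 20 or more combined intron reads, 6 members were called. This compares with 55.3% of such genes and 62.8% of those that also have at least 1000 exon reads. The ratio was higher in 6 of 7 members, against 80.4% of all tested genes and 88.2% of those with at least 1000 exon reads. It was at least 2-fold higher in 5 members, with 0.5 reads added to each count, against 52.3% of all tested genes. The median of the 7 log2 ratios was 1.29, beside 1.06 over all tested genes and 1.04 over those with at least 1000 exon reads. Among 723 genes of that expression whose summed intron length lies in the range of the Sm genes, the median was 1.21. Placed among the 14972 genes, the members ran from percentile 16.9 (snr-6) through 38.6 (snr-3) and 49.7 (snr-1) to 72.4 (snr-4) and 78.8 (snr-2). The point values of the family are thus spread widely over the distribution. The low end, snr-6, rests on 6 intron reads, and the ratio intervals overlap in 20 of 21 pairs of members.

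In the authors' deposited table, whose adjustment multiplies each p by the number of genes, snr-2, snr-4 and snr-5 passed 0.01, with adjusted p of 4.31e-07, 3.94e-06 and 0.000203. Of all genes in the authors' deposited table, 5.57% passed. The authors' deposited table gives snr-7 an adjusted p of 0.0106, just outside that threshold, and gives 1 for snr-1, snr-3 and snr-6.

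Exon reads of the Sm genes, scaled by library total, were lower at 25 °C in 7 of 7 members, beside 67.2% of 14313 genes that reach 10 exon reads in either library and 55.7% of those with at least 1000 combined. Under the median of gene-wise exon ratios or TMM, snr-1, snr-3 and snr-4 turn to slightly higher and the other 4 stay lower. Below 0 were then 52.3% of all genes by the median of exon ratios and 54.8% by TMM. By the median of exon ratios the share was 33.9% at 1000 or more combined exon reads. Within that class, 685 of the 903 whose summed exon length lies in the Sm range were below 0 under this scaling. With library totals, snr-7 was lowest at 0.593 of its 16 °C level (exact 95% interval 0.573 to 0.615), followed by snr-5 at 0.605 (0.581 to 0.630). The scaled exon ratio was 0.716 (0.696 to 0.738) in snr-2 and 0.734 (0.705 to 0.764) in snr-6. It was 0.838 (0.810 to 0.867) in snr-4, 0.889 (0.856 to 0.923) in snr-3 and 0.914 (0.881 to 0.948) in snr-1. None of the 7 was 2-fold lower, against 33.6% of all genes and 12.5% of those with at least 1000 exon reads. Of the 903 such genes with a summed exon length in the Sm range, 276 were 2-fold lower. At 1.5-fold 2 members were lower, snr-5 and snr-7, against 44.1% of all genes and 23.4% of those with at least 1000 exon reads. The exon intervals lay apart in 17 of 21 pairs of members, so the members differed from each other by more than the counting error of independent reads.

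Ring position and exon change can be set side by side. Exon ratios of the D1-D2 pair were 0.889 and 0.838, those of the E-F-G trimer 0.593 to 0.734, and those of the B-D3 pair 0.716 for snr-2 and 0.914 for snr-1. The median exon change of the family was log2 -0.45 (-0.72 in the 3 members that overlap no other gene), beside -0.42 over all genes and -0.08 over the 6404 genes with at least 1000 exon reads. Among 903 genes of that expression whose summed exon length lies in the range of the Sm genes the median was -0.71, and 89.7% were below 0. Among 5471 longer genes of that expression the median was 0.0016, and 49.9% were below 0. Short transcripts thus had lower exon reads at 25 °C as a class, and the part of transcript length in the Sm values was not tested.

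The change of the ratio was made up differently in different members. Library-scaled intron reads were 3.32-fold higher at 25 °C in snr-2 (exact 95% interval 2.03 to 5.61), 3.05-fold in snr-4 (1.99 to 4.78) and 1.91-fold in snr-1 (1.26 to 2.91). They were 1.57-fold higher in snr-7 (1.06 to 2.35), 1.48-fold in snr-5 (1.08 to 2.03) and 1.47-fold in snr-3 (0.933 to 2.32), where the interval includes 1. For snr-6 the scaled intron ratio was 0.606 (0.0548 to 4.23). On the log2 scale intron reads made up 87.8% of the ratio change in snr-1, 86.3% in snr-4, 78.2% in snr-2 and 76.5% in snr-3. They made up 46.4% in snr-7 and 43.8% in snr-5, where the lower exon reads made up the larger part under library totals. By the median of exon ratios the intron part was 72.1% in snr-7 and 71.8% in snr-5. It was then 94.6% in snr-2, 105.7% in snr-4, 121.7% in snr-1 and 126.5% in snr-3. Exon reads of snr-1, snr-3 and snr-4 were slightly higher at 25 °C under that scaling, so this split depends on the scaling. At least 2-fold more intron reads were found in 2 members, snr-2 and snr-4, against 35.9% of all tested genes. By the median of exon ratios 4 members passed that fold, against 45.1% of all tested genes under that scaling. At 1.5-fold and library totals 4 members passed, against 46.2%.

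**Figure D3:**
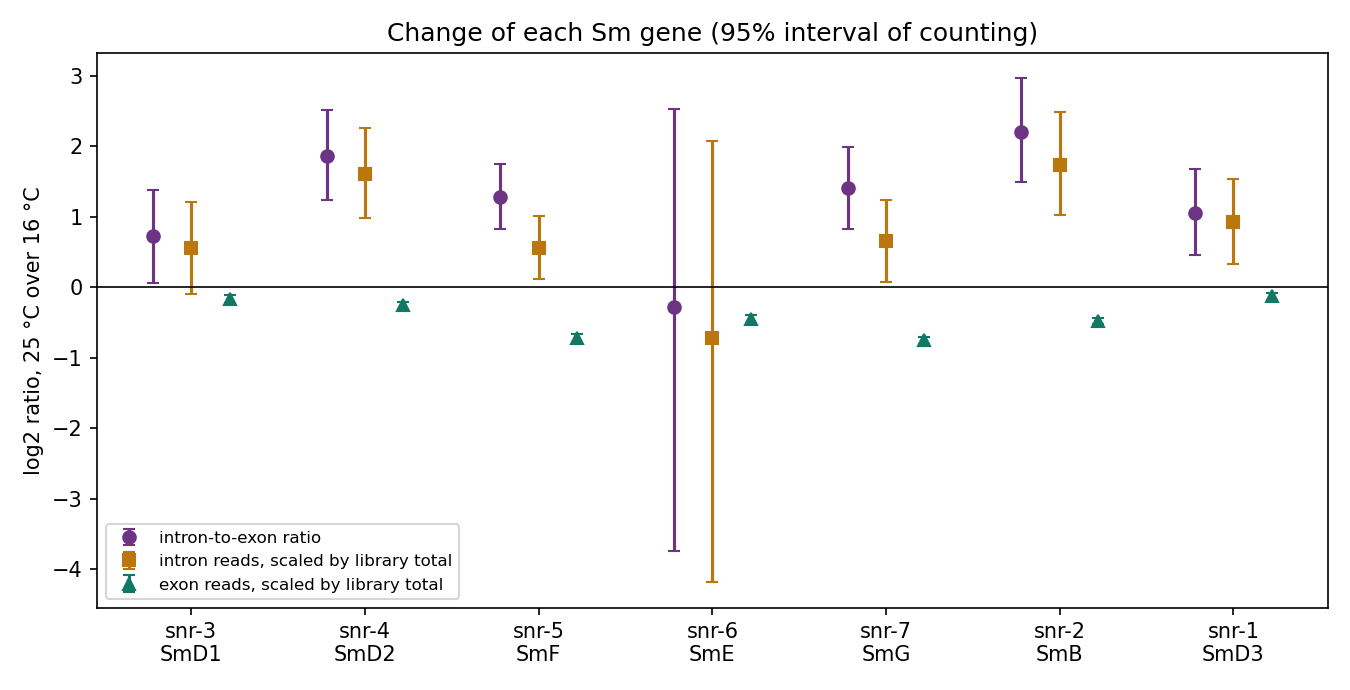
Log2 ratio, 25 °C over 16 °C, of the intron-to-exon ratio, of intron reads and of exon reads (reads scaled by library total) for each Sm gene, with 95% intervals of counting error from 1 library per temperature. The ratio lies above 0 in 6 genes, its interval is widest for snr-6 with 6 intron reads, and exon reads lie below 0 in 7 genes under this scaling.

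Levels of different Sm genes were compared per kilobase of summed exon length and per 1000000 library reads. On that scale the exon level at 25 °C was 549 for snr-5 (exact 95% Poisson interval 531 to 567), 544 for snr-2 (532 to 557) and 527 for snr-7 (511 to 542). These intervals overlap. It was 421 for snr-1, 333 for snr-4, 319 for snr-3 and 238 for snr-6, where only snr-4 (325 to 342) and snr-3 (310 to 328) overlap. At 16 °C the exon level was 907 for snr-5 (886 to 928) and 887 for snr-7 (870 to 906), which overlap, and then 760 for snr-2, 461 for snr-1, 398 for snr-4, 359 for snr-3 and 324 for snr-6. The range from lowest to highest was thus narrower at 25 °C. With the exon lengths of the Ensembl annotation, a choice made after seeing the data, snr-5 again had the highest exon level at both temperatures. The lowest was then snr-1, at 357 at 25 °C and 391 at 16 °C. The annotation gives more exon bases than the table for snr-1 (797 against 676) and fewer for snr-3 (626 against 825), snr-4 (563 against 931) and snr-6 (411 against 896). With the annotated lengths snr-4 was at 551 at 25 °C and 658 at 16 °C, and snr-6 at 519 at 25 °C and 707 at 16 °C, so the order of these genes depends on the exon model.

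Introns were also compared per base, as intron reads per intron base over exon reads per exon base. By that measure snr-4 was highest, at 25.7% at 25 °C and 7.08% at 16 °C. For snr-7 the per-base value was 12.03% at 25 °C and 4.54% at 16 °C. In the deposited table snr-5 has the longest summed intron and the shortest summed exon of the family, where the longer annotated introns of snr-3 and snr-4 are not counted. Its per-base value was 6.003% at 25 °C and 2.46% at 16 °C, within the range of the family. Per base, snr-6 was the lowest, at 0.984% at 25 °C and 1.19% at 16 °C, though its intron is nearly as long as the 1 counted for snr-4. With annotated exon lengths snr-4 was still highest at 25 °C (15.6%), but at 16 °C its 4.28% lay below the 4.61% of snr-1 and the 4.54% of snr-7. For introns shorter than a read these values depend on how overlapping reads were counted, so they rank genes only loosely.

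**Figure D4:**
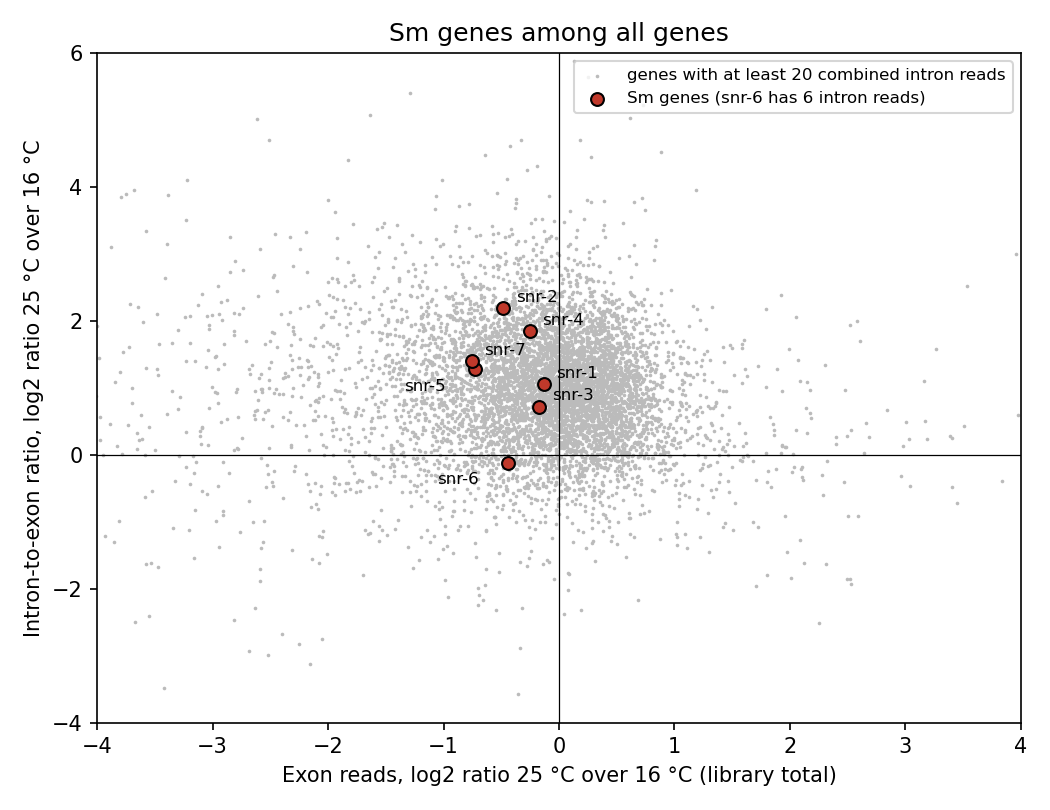
Each gray point is 1 of 6893 genes that have 20 or more combined intron reads, by log2 ratio 25 °C over 16 °C of exon reads (x, library total scaling) and of the intron-to-exon ratio (y), both with 0.5 reads added to each count; 82 genes lie outside the axes. The 7 Sm genes (red) lie within the main cloud, left of 0 on x, with 6 above 0 on y and snr-6 just below.

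The genes with the most similar values were found by distance to the median Sm pair of log2 changes, -0.45 for exon reads and 1.29 for the ratio. Among 6969 candidates that have 20 or more combined intron reads the 5 nearest were cwf-19L2, Y53G8AR.9, syx-7, cul-1 and Y42H9B.3, at distances of 0.0057 to 0.024 over 2 libraries. For cwf-19L2 the exon change was -0.45 and the ratio change 1.28. For cul-1 they were -0.43 and 1.30. The likeness rests on a single contrast.

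Other genes that act beside the Sm ring had uneven values. Of the LSm genes 7 of 8 were in the table, and lsm-5 was not analysed here. The ratio rose in 2 of 7 LSm genes, lsm-7 and lsm-8, and fell in none, with a median log2 of 0.82. It rose in 28.1% of all tested genes and in 51.0% of those with at least 1000 exon reads, as each LSm gene here has. It rose 2.80-fold in lsm-7 (1.77 to 4.46; Fisher exact test, adjusted p = 6.95e-05), which had 44 intron reads at 25 °C, against 39 at 16 °C. In gut-2, which encodes LSm2, the ratio was 1.84 (1.05 to 3.19; Fisher exact test, adjusted p = 0.0724), and in lsm-4 it was 1.46 (0.752 to 2.84). Exon reads were lower at 25 °C in 7 of 7 LSm genes and at least 2-fold lower in 4. Over all genes 67.2% were lower and 33.6% at least 2-fold lower, against 55.7% and 12.5% with at least 1000 exon reads. Among the 903 genes of that expression and of Sm exon length, 89.7% were lower and 276 were at least 2-fold lower. The LSm median exon length was 712 bases. The LSm median log2 was -1.02, against -0.45 for the Sm genes. By the median of exon ratios the LSm median was -0.66 and 6 of 7 were below 0. Under that scaling 52.3% of all genes and 33.9% of those with at least 1000 exon reads were below 0. So were 685 of the 903 genes of that expression and of Sm exon length. The difference between the families was not tested.

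Genes of proteins found on particular snRNPs, some on more than 1, had a median exon change on the other side of 0. Of the 14, 9 had a ratio that rose and none one that fell, against rises in 28.1% of all tested genes and 51.0% of those with at least 1000 exon reads. Their median log2 ratio was 0.94, below the 1.06 of all tested genes. Their exon reads had a median of 0.24 and 5 were below 0, against 67.2% of all genes and 55.7% of those with at least 1000 exon reads. The ratio rose 4.29-fold (2.05 to 10.05; Fisher exact test, adjusted p = 0.000112) in prp-31, a U4/U6 protein, where there were 41 intron reads at 25 °C and 9 at 16 °C. It rose 3.77-fold (2.18 to 6.93; Fisher exact test, adjusted p = 1.51e-06) in eftu-2, the U5 GTPase, with 78 and 16 intron reads at 25 °C and 16 °C. In snrp-27 the ratio was 0.278 (0.0313 to 1.16; Fisher exact test, adjusted p = 0.209), on 2 intron reads at 25 °C and 18 at 16 °C. Most of these transcripts are longer than those of the Sm genes, with a median exon length of 1622 bases against 719.

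**Figure D5:**
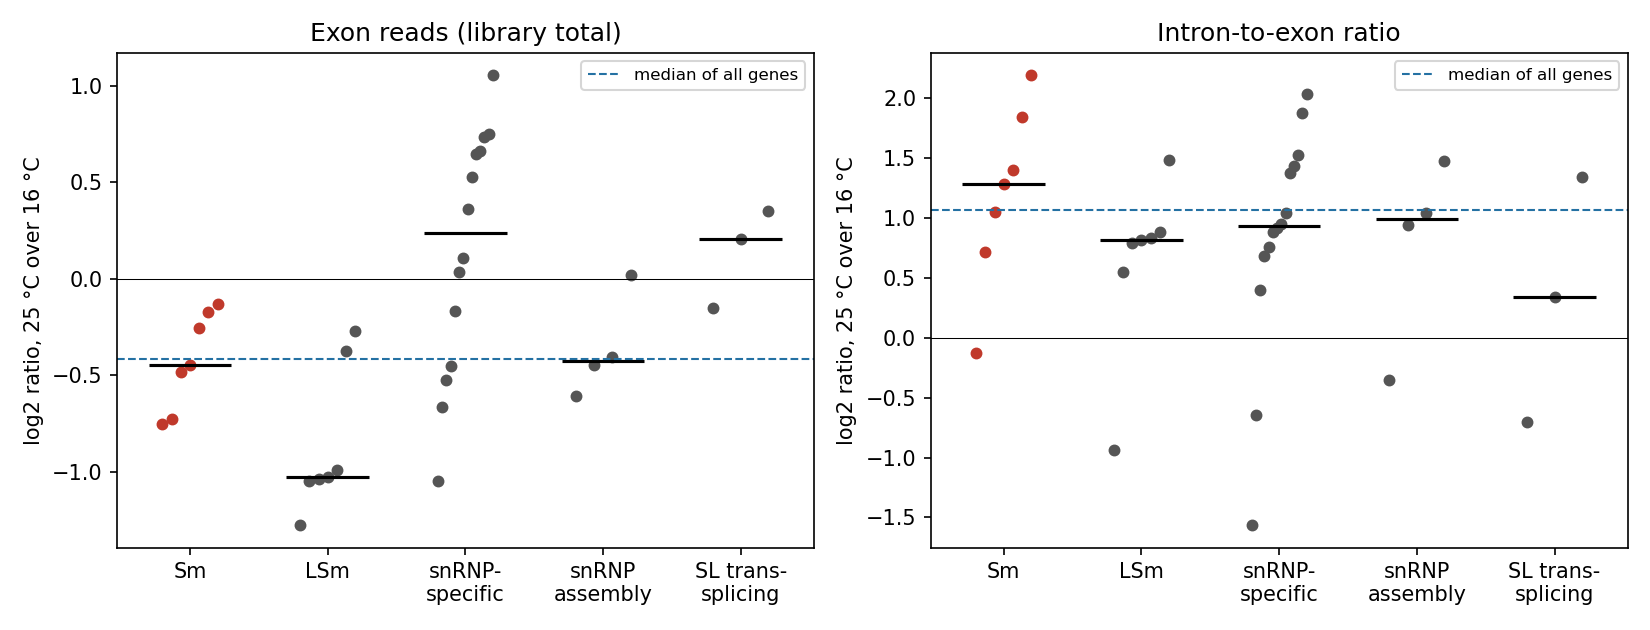
Log2 ratio, 25 °C over 16 °C, of exon reads (left, library total scaling) and of the intron-to-exon ratio (right) for each gene of 5 lists, with 0.5 reads added to each count. Horizontal bars are list medians and the dashed line is the median of all genes; Sm exon values (red) range from -0.75 to -0.13, with a median near that line.

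Among the snRNP assembly genes the ratio rose in 2 of 4, and among those of trans-splicing in 1 of 3. It rose in 28.1% of all tested genes and in 51.0% of those with at least 1000 exon reads. In smn-1, the SMN protein that loads Sm proteins onto snRNA, it rose 2.82-fold (1.52 to 5.34; Fisher exact test, adjusted p = 0.00249), and in icln-1, a chaperone of unassembled Sm proteins, 2.06-fold (1.47 to 2.91; adjusted p = 0.000151). The ratio was 1.95 (0.867 to 4.61) in prmt-5, the arginine methyltransferase that modifies Sm tails, and 0.764 (0.317 to 1.72) in smi-1, the Gemin2 partner of SMN, and neither was called. Exon reads of smn-1 were at 0.657 of their 16 °C level (0.613 to 0.703), those of icln-1 at 0.734, those of smi-1 at 0.755 and those of prmt-5 at 1.01. For the trans-splicing RNPs the ratio rose in sna-1, 2.55-fold (1.86 to 3.55; Fisher exact test, adjusted p = 2.12e-08). It was 1.27 (0.905 to 1.77) in sut-1 and 0.607 (0.302 to 1.18) in sna-2, neither of them called.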

How the data were processed

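Per the submitters' processing notes, the authors used Trimmomatic, TopHat2 and HTSeq (no versions named) on 1 library per temperature. The deposited values are raw counts of exon and intron reads per gene, per the file headers, with each gene's summed exon and intron length. Columns headed Exp belong to 25 °C and those headed Con to 16 °C, since the sample labels use those words. The fold is a ratio that the authors deposited, and it matched the counts within 0.01% in 10860 of 10860 genes. The deposited p-value matched a two-sided Fisher exact test within 2% in 19487 genes.

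Fisher exact tests of the 4 counts were run on genes with at least 10 combined reads and adjusted by Benjamini-Hochberg at 0.05 (scipy 1.17.1). Exon and intron changes were scaled by library total and described with exact binomial intervals at 95%. Exon changes over all genes used those with at least 10 exon reads in 1 library. PCR reads are not independent molecules, so intervals cover counting error only. Single genes' folds add nothing to the counts, and medians, percentiles and fold counts over lists add 0.5 reads. TMM factors came from edgeR 4.0.16.

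The test was tried on simulated counts. The members, gene lists and tests were chosen with earlier results of these data known. Named genes were the 7 Sm genes, gad-1, from each longer list the 2 largest and the smallest ratio change with at least 20 intron reads, whole lists of 4 or fewer, and the 5 genes nearest the Sm median. The comparisons with genes of at least 1000 exon reads and of like length were chosen after seeing the data, as was naming lsm-8.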

Additional observations from a re-analysis of the deposited data

How the results depend on the processing

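The 7 ratios kept their direction with 0.5 or 1 read added to each count. The count of 5 rises was also 5 with no minimum, 6 with at least 20 combined intron reads, where snr-3 passed (adjusted p = 0.0469), snr-6 was not tested and 55.3% of all genes tested were called, and 3 by Bonferroni at 0.01, which leaves snr-2, snr-4 and snr-5. At 1.5-fold, 2 members had lower exon reads and 4 higher intron reads, against 0 and 2 at 2-fold. Over all genes the shares at 1.5-fold were 44.1% and 46.2%. By the median of exon ratios, which shifts every gene by 0.36 on the log2 scale (TMM: 0.30), 4 had at least 2-fold more intron reads, against 45.1% of all genes. On the log2 scale, leaving out 1 member gave median ratios of 1.17 to 1.34, exon medians of -0.46 to -0.35 and intron medians of 0.61 to 0.79. The exon median was -0.72 in the 3 members that overlap no other gene and -0.085 by the median of exon ratios. The 6 intron reads of snr-6 limit what can be said of it. No paired analysis was possible because there is 1 library per temperature and the labels give no replicate numbers.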
